A study of Mus musculus with 12 samples.

Results

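Type IIb fibres of endurance-trained mice were compared with type IIb fibres of untrained mice, 3 libraries against 3, which are 6 of the 12 libraries of the series. The members were chosen by their labels, as the trained and untrained libraries of type IIb myofibers dissected from extensor digitorum longus, a muscle of the lower hindlimb. The other 6 libraries hold type I myofibers of soleus, trained and untrained, and entered the same fit. Every animal was a male C57BL/6J mouse labelled as 8 weeks old in both groups, and whether training came before or after that age is not stated. Training consisted of treadmill running for 6 weeks, on 5 days of each week, in runs of 60 min at 12 to 16 m/min, and muscles were taken 3 days after the final run. Fibres were freed with collagenase (2 mg/ml at 37 °C, for 60 min in type IIb and 90 min in type I libraries, per the labels' protocols). A piece of each fibre served to determine the myosin heavy chain protein it contained, and RNA came from the remaining piece. SMART-Seq HT, a kit for tiny RNA inputs, amplified the cDNA, and Nextera XT, which keeps no strand information, made the libraries. How many fibres went into a library is not given in the sources used here. Separate animals are not named in the labels either, so that a p-value here reflects the spread between libraries, which may in part be technical.

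Type IIb fibres are the fastest fibres of mouse muscle. They contract with the myosin heavy chain encoded by Myh4, draw on glycogen and glycolysis, and hold fewer mitochondria than slow fibres. Endurance training is known to raise mitochondrial enzymes and capillary supply in muscle, partly through bursts of transcription after each run that later fade.

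Myosin heavy chain RNA in all 6 libraries was nearly all of the type IIb kind. Of the counts of the 4 heavy chain genes Myh1, Myh2, Myh4 and Myh7, Myh4 held 99.7%, 99.96% and 100% in the untrained libraries and 99.7%, 99.99% and 99.99% in the trained libraries (mean 99.9% in both groups, exact two-sided permutation test p = 0.9, where 3 against 3 cannot give p below 0.1). Myh1, the heavy chain of type IIx fibres, had 854, 274 and 0 counts in untrained and 668, 58 and 108 counts in trained libraries. Myh2 and Myh7, the heavy chains of type IIa and type I fibres, had 1 count each over the 6 libraries. The heavy chain makeup therefore did not separate the groups.

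Library totals were 9488692, 8026397 and 15292039 counts in the trained and 9707337, 14408531 and 12050797 counts in the untrained group. Genes with at least 10 counts numbered 3636, 9170 and 6002 in untrained and 4291, 5910 and 10932 in trained libraries, so libraries of one group differed by more than the group means (6269 ± 2777 and 7044 ± 3463, SD, n = 3, exact two-sided permutation p = 0.7). Levels are given as CPM, counts scaled to library size with edgeR's TMM factors, in the order of libraries 1, 2 and 3. Trained library 3 stood apart by markers of vessel cells and fibroblasts, and untrained library 1 and trained library 1 by the fewest genes. Of the 11747 genes tested, 8774 had no count in at least one of the 6 libraries and 2092 had at least 10 counts in all 6. The genes with a mean of 100 CPM or more, 1104 in number, took 86.1% of the counts and are called abundant genes below.

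No gene passed the test of training in type IIb fibres. EdgeR's quasi-likelihood test called 0 of 11747 genes (0%) at a Benjamini-Hochberg adjusted p under 0.05, and the smallest adjusted p was 0.597. On counts simulated with the spread estimated from these libraries the same test did not recover the changed genes, so this count does not show that no gene changed. An unadjusted p under 0.05 was reached by 965 genes (8.21%), of which 807 were higher (6.87%) and 158 lower (1.35%) in trained fibres. Among the abundant genes these were 17 higher (1.54%) and 28 lower (2.54%). These counts hung on single libraries. Without untrained library 1, 2 or 3 they were 271, 1516 and 270 higher and 217, 158 and 175 lower, and without trained library 1, 2 or 3 they were 1093, 842 and 343 higher and 120, 72 and 694 lower. In a fit of the 6 type IIb libraries alone, 34 of 7077 genes were higher and 32 lower at this p, and none was called. DESeq2 called 278 genes higher and 46 lower, none of them abundant and none with at least 10 counts in all 6 libraries. Of its 278 higher genes, 196 were highest in trained library 3 and 177 reached 10 counts in exactly 1 trained library. Many of the DESeq2 calls had a log2 fold change past 15 that was not finite. Some of them had 1 count over the 6 libraries.

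The 3 trained libraries lay above the 3 untrained ones for 331 genes (2.82%) and below them for 225 (1.92%), 556 genes in all (4.73%). Such genes are called separated here. Among abundant genes 53 were separated higher (4.8%) and 67 lower (6.07%). The median log2 fold change of trained over untrained was 0.36 over all genes and 0.06 over abundant genes. Scaled by library totals in place of TMM, these medians were 0.22 and -0.12. Without untrained library 2 and without trained library 3 the median was 1.56 and -0.07 over the genes tested with all libraries. The large fold changes were found among genes of low level. Over all genes tested 58% had a log2 fold change above 0 and 39% below 0. Among the 1104 abundant genes 586 lay above 0. The counts of the gene lists below are to be read beside these shares and the shares of separated genes.

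**Figure D1:**
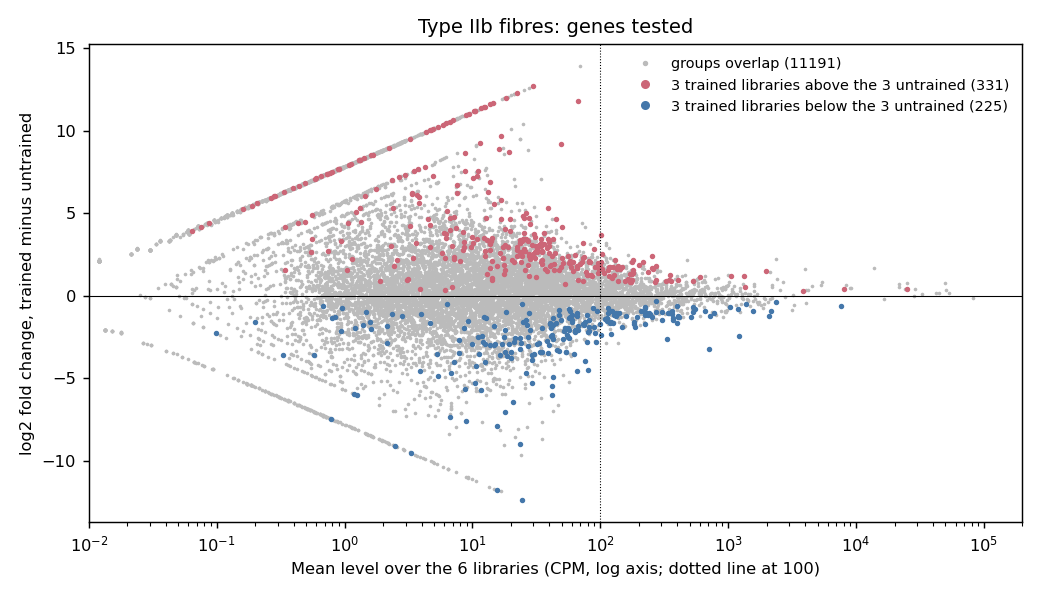
Mean level over the 6 type IIb libraries (CPM, log axis) against log2 fold change, trained minus untrained, for the genes tested, where grey points are genes whose groups overlap and coloured points are the 331 separated higher and 225 separated lower genes. Fold changes narrow toward 0 above 100 CPM (dotted line). The 353 tested genes without a count in any of the 6 libraries are outside the plot.

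Nuclear genes of the respiratory chain lay lower in trained fibres on the whole. Complex I, which passes electrons from NADH to ubiquinone, had 28 of 37 nuclear subunit genes below 0 and 9 above, with a median log2 fold change of -0.35. Complexes II to V, with the cytochromes and the ATP synthase, had 28 of 43 below 0 and 15 above, with a median of -0.30. Over all genes tested 39% lay below 0, and over abundant genes 46.9%. No member was called, and 9 of the 80 were separated lower and 2 higher. These were 3 of 37 (8.11%) for complex I and 6 of 43 (14%) for complexes II to V, against 1.92% of all genes and 6.07% of abundant genes.

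Ndufb10, an accessory subunit of complex I (ENSMUSG00000040048, mm10 chromosome 17, 24722060 to 24724478), had 958, 1022 and 1062 CPM in untrained and 162, 293 and 837 CPM in trained libraries. Trained libraries 1 and 2 lay far below all untrained ones and library 3 just below, a mean difference of 2.35-fold (log2 fold change -1.24 ± 0.54 SE, edgeR adjusted p = 0.597). Ndufc2, another accessory subunit, had 435, 294 and 272 against 76.7, 158 and 238 CPM, and Ndufb3 had 419, 457 and 582 against 323, 308 and 319 CPM. The highest complex I members by FPKM, Ndufc1 and Ndufa2, had overlapping groups. Ndufc1 had 5949, 2224 and 3548 CPM untrained and 4936, 1955 and 1002 CPM trained.

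In complex IV, Cox6a2, the subunit found in heart and skeletal muscle, was close to level in the untrained libraries at 9374, 9286 and 9094 CPM and had 8947, 2943 and 5959 CPM in the trained ones. Its trained libraries all lay below the untrained, the first by little (1.55-fold lower on average, log2 fold change -0.64 ± 0.41 SE, edgeR adjusted p = 0.741). Cox5b, also of complex IV, had 1791, 1296 and 1421 CPM against 838, 631 and 1126 CPM (1.74-fold lower). Cycs, which encodes cytochrome c, had 1786, 2429.7 and 2009 CPM against 1584, 286 and 1355 CPM, a spread in the trained group set by library 2. Atp5j, a peripheral stalk subunit of the ATP synthase, had 2330.2, 3888 and 2353 CPM against 1697, 793 and 1964 CPM (1.92-fold lower, log2 fold change -0.94 ± 0.43 SE, edgeR adjusted p = 0.597). Cox7b and Atp5l were the other separated lower genes of complexes II to V (1.64-fold and 1.61-fold). The 2 separated higher were Sdhc, a membrane anchor of complex II, and Atp5c1, the central stalk of the ATP synthase (2.57-fold and 1.46-fold). Cox4i1, a nuclear subunit of complex IV, went the other way with overlapping groups, at 710, 1272 and 1175 CPM against 1060.1, 1429 and 1819.7 CPM.

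Library by library, the lists did not move as one block. Each abundant member was placed on a log2(CPM + 1) scale relative to its mean over the 6 libraries, and the median over members was taken in each library. For complex I these medians were 0.22, 0.25 and 0.20 in untrained and -0.06, -0.54 and 0.35 in trained libraries. Trained library 3 thus held the highest complex I level of all 6, and trained library 2 the lowest. For complexes II to V they were 0.16, 0.21 and 0.20 against 0.02, -0.46 and 0.02, with no overlap between the groups. Without trained library 2 the median log2 fold changes were -0.13 for complex I and -0.15 for complexes II to V, and both lists stayed below 0 without each other library in turn (-0.53 to -0.32 and -0.41 to -0.25).

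**Figure D2:**
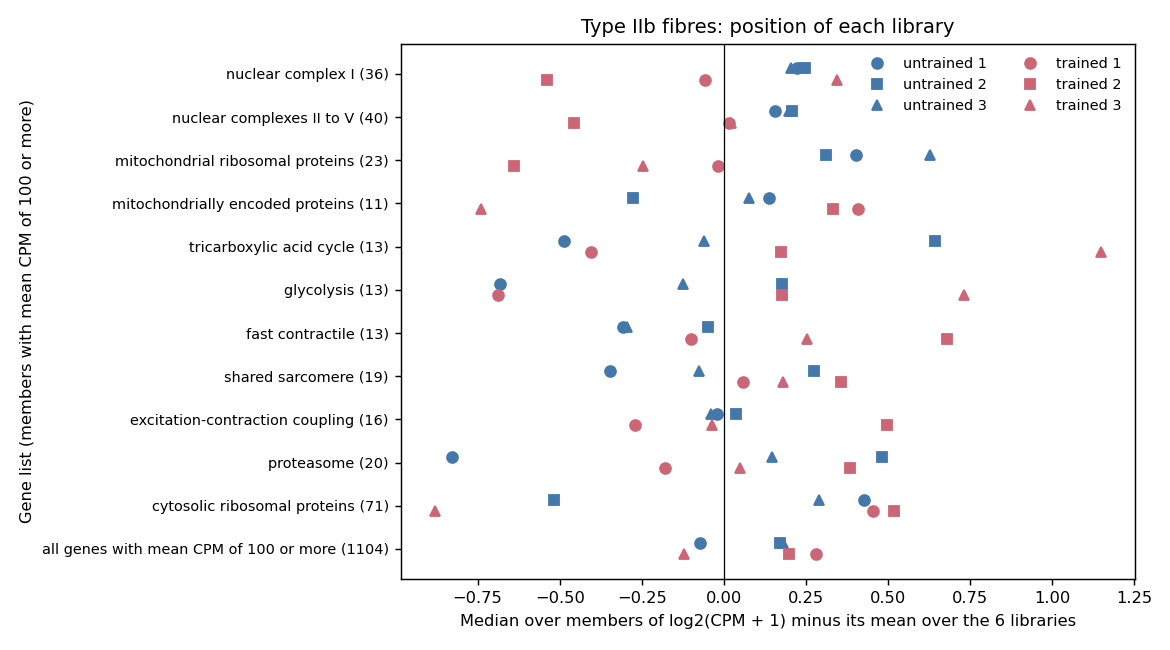
Position of each type IIb library for 11 gene lists and for all abundant genes, as the median over members of log2(CPM + 1) minus the member's mean over the 6 libraries, with untrained libraries in blue and trained in red. The untrained libraries lie to the right of the trained ones for complexes II to V and mitochondrial ribosomal proteins, and overlap them for the other lists.

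Gene length moved with these results. The authors' gene lengths had a median of 763 bases in the complex I list and 771 in complexes II to V, against 1410 over abundant genes. Abundant genes of at most 1000 bases (335 genes) had a median log2 fold change of -0.04 and those over 4000 bases (57 genes) one of 0.55. The median of long minus short genes in a library was -0.68, 0.34 and -0.46 in untrained and 0.16, 0.42 and 0.42 in trained libraries on the log2 scale. Over the 1104 abundant genes fold change and length had a Spearman correlation of 0.14. With a length term for each library in the fit, chosen after seeing the data, the medians of complex I and of complexes II to V were -0.11 and -0.04, and 20 of 43 genes of complexes II to V lay above 0. That term was fitted to the abundant genes, which hold 36 members of complex I and 40 of complexes II to V. It can therefore take up part of a shift of these lists themselves. Whether length accounts for the shift was not tested.

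Mitochondrial ribosomal proteins, which build the ribosome that translates the mitochondrial genome, also lay lower in trained fibres among their better measured members. Of 75 genes tested, 44 were below 0 and 31 above (median -0.17), with 10 separated lower (13.3%) and 3 higher (4%). Of the 23 abundant members 17 were below 0 and 6 were separated lower (26.1%, against 6.07% of abundant genes). The library medians of these 23 were 0.40, 0.31 and 0.63 in untrained and -0.02, -0.64 and -0.25 in trained libraries, again without overlap. Mrps21, of the small subunit, had 551, 402 and 810.2 CPM untrained and 301, 176 and 232 CPM trained (2.49-fold lower, log2 fold change -1.31 ± 0.59 SE, edgeR adjusted p = 0.597). Mrpl30, of the large subunit, had 625, 350.0 and 611 against 175, 173 and 270.4 CPM, and Mrps24 had 202, 169 and 239 against 4.63, 9.61 and 109 CPM. In each of these 3 genes every trained library lay under every untrained one. The median of all 75 was 0.10 without untrained library 2 and 0.05 with the length term, and so changed sign in both.

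The mitochondrial genome supplied 28.3%, 26.7% and 28.3% of counts in untrained and 29.3%, 24.6% and 25.0% in trained libraries (27.8 ± 0.918% and 26.3 ± 2.62%, SD, n = 3, exact two-sided permutation p = 0.4). Without ribosomal RNA the share was 21.7%, 22.7% and 21.9% in untrained and 21.4%, 19.8% and 20.7% in trained libraries. Here every trained library lay below every untrained one (22.1 ± 0.543% and 20.6 ± 0.816%, SD, n = 3, exact two-sided permutation p = 0.1, the smallest that 3 against 3 can give). Of its 13 protein genes 8 lay above 0 and 5 below (median 0.11, but -0.11 scaled by library totals and -0.17 on log2(FPKM + 1)). In this set 1 was separated higher (7.69%, against 2.82% of all genes). That gene was mt-Nd5, a complex I subunit, at 6929, 7526 and 6252 CPM untrained and 10389, 8274 and 8758 CPM trained (1.32-fold, log2 fold change 0.41 ± 0.54 SE, edgeR adjusted p = 0.977). The most abundant by FPKM, mt-Cytb and mt-Nd1, had overlapping groups and mean differences of 1.1-fold. Cytosolic ribosomal proteins were likewise near level (44 of 77 above 0, median 0.09 and -0.12 scaled by library totals). Of these 3 were separated higher (3.9%) and 1 lower (1.3%), against 2.82% and 1.92% of all genes. Reads of ribosomal protein genes may be shared with processed pseudogenes.

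**Figure D3:**
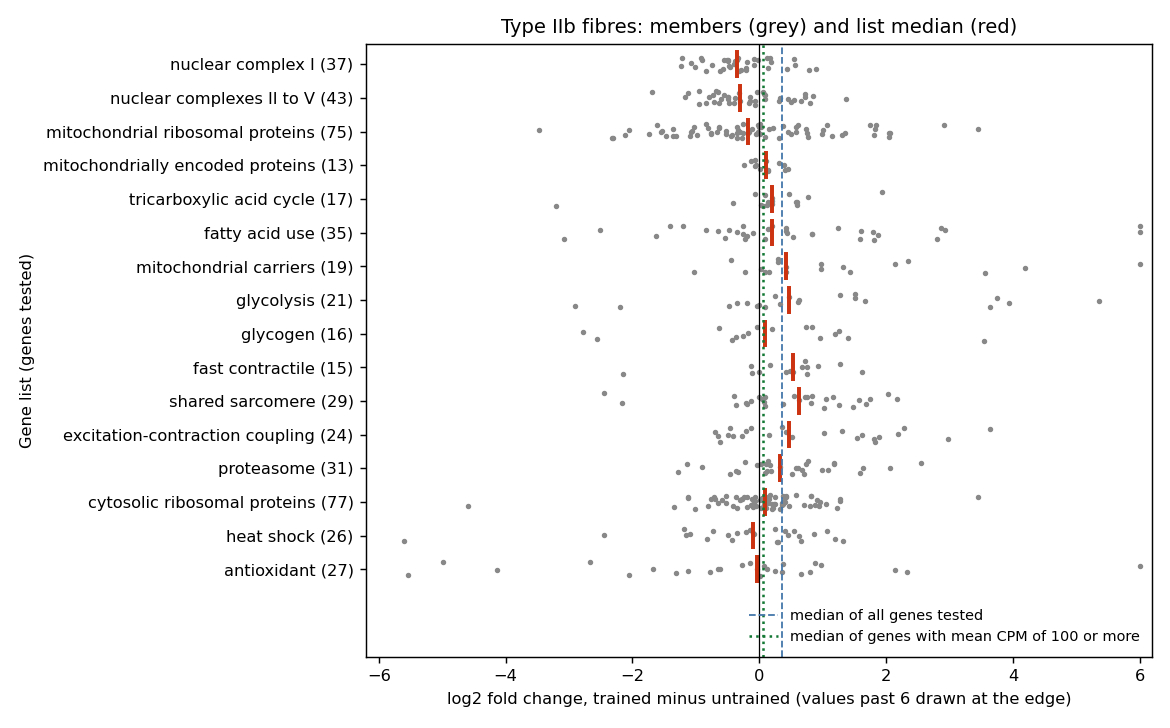
Log2 fold change, trained minus untrained, of the tested members of 16 gene lists in type IIb fibres (grey points, number tested in brackets) with the list median in red, the median of all genes tested (0.36, dashed) and of abundant genes (0.06, dotted). The medians of both respiratory chain lists (-0.35 and -0.30) and of mitochondrial ribosomal proteins (-0.17) lie left of 0, while glycolysis (0.47) and both sarcomere lists (0.53 and 0.63) lie right of it.

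Enzymes of the tricarboxylic acid cycle lay above 0 in 14 of 17 cases (82.4%, against 58% of all genes, median 0.20). None was called, and 1 was separated higher (5.88%, against 2.82% of all genes). That gene was Idh2, the mitochondrial NADP-dependent isocitrate dehydrogenase (ENSMUSG00000030541, chromosome 7, 80094846 to 80115392). It had 28.6, 40.4 and 17.4 CPM in untrained and 90.6, 118 and 123 CPM in trained libraries. Every trained library lay well above the highest untrained one, and the mean was 3.84-fold higher (log2 fold change 1.94 ± 0.46 SE, edgeR adjusted p = 0.597). Mdh2, malate dehydrogenase, had 942, 861 and 573 against 854, 1058 and 1628 CPM with overlap. Cs, citrate synthase and a common index of mitochondrial content, had 146, 422 and 170.2 against 1.80, 200.4 and 353 CPM, also with overlap. The list median was -0.42 without trained library 3 (7 of 17 above 0), the library that held the highest list position of the 6 (1.15).

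Genes of fatty acid use were above 0 in 20 of 35 cases (57.1%, against 58% of all genes). Their median was 0.20, but -0.22 without trained library 3 and -0.08 on log2(FPKM + 1). In this list 3 were separated higher (8.57%, against 2.82% of all genes) and none lower. Eci1, an isomerase that lets unsaturated fatty acids enter beta-oxidation, had 15.9, 98.0 and 88.2 CPM untrained and 154, 253 and 199 CPM trained (3.00-fold higher, log2 fold change 1.58 ± 0.73 SE, edgeR adjusted p = 0.597). Echs1, the enoyl-CoA hydratase of the same pathway, had 2.70, 69.1 and 78.0 against 152, 93.9 and 109 CPM. Slc27a4, a fatty acid transport protein, had 0, 7.21 and 4.87 against 68.6, 14.3 and 9.41 CPM. In all 3 the untrained library 1 held the least. Mitochondrial carriers of the Slc25 family were above 0 in 16 of 19 (84.2%, median 0.43, and 0.00 without trained library 3). Here 1 was separated higher (5.26%, against 2.82% of all genes and 4.8% of abundant genes). Slc25a4, the ADP/ATP carrier of muscle, was the 1 separated carrier, at 3475, 3495 and 3387 CPM untrained and 4537, 4255 and 3906 CPM trained (1.23-fold higher, log2 fold change 0.29 ± 0.38 SE, edgeR adjusted p = 0.973).

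Glycolytic enzymes, which carry the bulk of energy supply in type IIb fibres, were above 0 in 14 of 21 cases (66.7%, against 58% of all genes, median 0.47). Among the 13 abundant members 8 lay above 0 (median 0.24). None of the 21 was called, and 1 was separated higher (4.76%, against 2.82% of all genes and 4.8% of abundant genes). Pkm, pyruvate kinase (ENSMUSG00000032294, chromosome 9, 59656368 to 59679375), had 909, 1135 and 1064 CPM in untrained and 1142, 5179.7 and 2485 CPM in trained libraries. Trained library 1 lay just above the highest untrained library and library 2 far above, for a mean 2.83-fold higher (log2 fold change 1.50 ± 0.50 SE, edgeR adjusted p = 0.597). Aldoa and Eno3, the highest of the list by FPKM, overlapped between groups. Aldoa, the muscle aldolase, had 6480.4, 9289 and 7173 against 7566, 9636 and 14576 CPM, and Eno3, the muscle enolase, had 4356, 4083 and 4160.5 against 3075, 6786 and 9630.3 CPM. The glycolysis median was -0.26 without trained library 3. Glycogen genes were even at 8 above and 8 below 0. Stbd1, a glycogen-binding protein, was the 1 separated lower (6.25%, against 1.92% of all genes), at 242, 64.8 and 103 against 0, 0 and 59.5 CPM.

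Ckm, the muscle creatine kinase that rebuilds ATP from phosphocreatine (ENSMUSG00000030399, chromosome 7, 19404776 to 19422841), had 587, 758 and 593 CPM untrained and 1038, 2106 and 1227 CPM trained. Its groups did not overlap and the mean was 2.25-fold higher in trained fibres (log2 fold change 1.17 ± 0.56 SE, edgeR adjusted p = 0.597). It was the 1 separated gene among 13 of energy buffering. This was 7.69%, against 2.82% of all genes and 4.8% of abundant genes separated higher. Of the 13 genes 7 lay above 0 (53.8%). Exon sequence shared with another annotated gene made up 15.5% of Ckm and 15.3% of Pkm. Akt2, a kinase of insulin signalling that promotes glucose uptake, had 0.216, 33.7 and 34.9 against 87.4, 104 and 82.9 CPM. It was the 1 separated gene among 21 of glucose and lactate transport (4.76%, against 2.82% of all genes separated higher).

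Contractile genes of fast fibres were above 0 in 11 of 15 cases (73.3%, against 58% of all genes, median 0.53), with none separated and none called. Myh4 had 28338, 55453 and 27712 CPM untrained and 26987, 102230 and 59298 CPM trained, so that the lowest library of all was a trained one. Mylpf, the fast regulatory light chain, averaged 28709 ± 7916 and 28503 ± 10852 CPM (SD, n = 3). Pvalb, parvalbumin, which buffers calcium in fast fibres, had 23352, 12738 and 19913 against 20731, 55761 and 17528 CPM. In Myh4, Mylpf and Pvalb alike trained library 2 held the most. Limma-voom with quality weights called Myh4 higher (log2 fold change 0.89, adjusted p = 9.59e-06), while edgeR gave an adjusted p of 0.922.

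Of sarcomere genes shared by fibre types 21 of 29 were above 0 (72.4%, against 58% of all genes) and 7 below (median 0.63). In this list 1 was separated higher (3.45%) and 2 lower (6.9%), against 2.82% and 1.92% of all genes. Among its 19 abundant members 1 was separated each way (5.26% each), against 4.8% and 6.07% of abundant genes. Acta1, the skeletal alpha-actin, had 19282, 22491 and 23294 CPM untrained and 23635, 34725 and 26268 CPM trained (1.30-fold higher, log2 fold change 0.38 ± 0.31 SE, edgeR adjusted p = 0.854). Actc1, the cardiac alpha-actin that is also made in developing and regenerating muscle, went the opposite way. It had 3561, 656 and 1965 CPM untrained and 578, 450.2 and 107 CPM trained, 5.45-fold lower (log2 fold change -2.44 ± 0.87 SE, edgeR adjusted p = 0.597). Untrained library 2 lay just above trained library 1, and the 2 actins may share reads. Xirp1, a stress-responsive adaptor of the sarcomere, had 109.8, 58.3 and 86.9 against 8.75, 0.181 and 47.9 CPM. Mybpc1, the slow myosin-binding protein C, was the 1 abundant member of the slow-fibre list, at 718, 1131 and 1508 CPM untrained and 1162, 1322 and 1566 CPM trained with overlap. The other slow-fibre genes were low, among them Tnnc1, the slow troponin C, at 0.324, 7.21 and 32.3 against 0.129, 0 and 0.0719 CPM. The ratio for Tnnc1 was 185 with a 95% counting interval from 51.3 to 1532, and it was called lower without a filter on low counts and without untrained library 1 (edgeR adjusted p = 4.94e-16 and 4.72e-05). Without that filter edgeR called 3 genes lower, all of them type I fibre markers (Tnnc1, Tpm3 and Myl3), and 6 higher.

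The action potential is linked to calcium release by excitation-contraction coupling. Genes of this list were above 0 in 15 of 24 cases (62.5%, against 58% of all genes, median 0.47), with 2 separated higher (8.33%, against 2.82%). Its 16 abundant members had 8 above 0 and 8 below (median 0.01), and their library medians overlapped between groups. Jsrp1, a junctional protein of the sarcoplasmic reticulum, had 51.1, 173 and 141 CPM untrained and 207, 769 and 309.6 CPM trained (3.52-fold higher, log2 fold change 1.81 ± 0.97 SE, edgeR adjusted p = 0.608). Jph2, a junctophilin that holds the triad together, had 0, 14.0 and 37.0 against 103, 49.0 and 95.2 CPM. Ryr1, the calcium release channel, is named here after its values were seen, as the member of smallest p. It had 488, 1740.5 and 321 against 1309, 6996 and 3336 CPM, a mean 4.57-fold higher with overlap of trained library 1 and untrained library 2 (log2 fold change 2.19 ± 0.66 SE, edgeR adjusted p = 0.597).

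The lowest p among separated lower genes belonged to Fos, the AP-1 transcription factor gene that is switched on within minutes of contraction or stress (ENSMUSG00000021250, chromosome 12, 85473890 to 85477273). It had 1159.7, 277 and 2392 CPM in untrained and 171, 143 and 91.6 CPM in trained libraries. The trained libraries lay close together and all below the lowest untrained library, 9.44-fold lower on average (log2 fold change -3.24 ± 0.73 SE, edgeR adjusted p = 0.597). Under the other settings its log2 fold change lay between -3.72 and -2.41 and its adjusted p between 0.0567 and 1. Egr1, an early growth response factor induced by the same stimuli, had 1125, 465 and 1726 against 907, 483 and 84.7 CPM and overlapped. Of 23 immediate early genes tested 14 were below 0 and 9 above (median -0.85). Fos was the 1 separated (4.35%, against 1.92% of all genes and 6.07% of abundant genes separated lower). The list rested on untrained library 3, without which its median was 0.28. In that library Fos, Egr1, Jun, Atf3 and Btg2 each held their highest level of the 6.

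**Figure D4:**
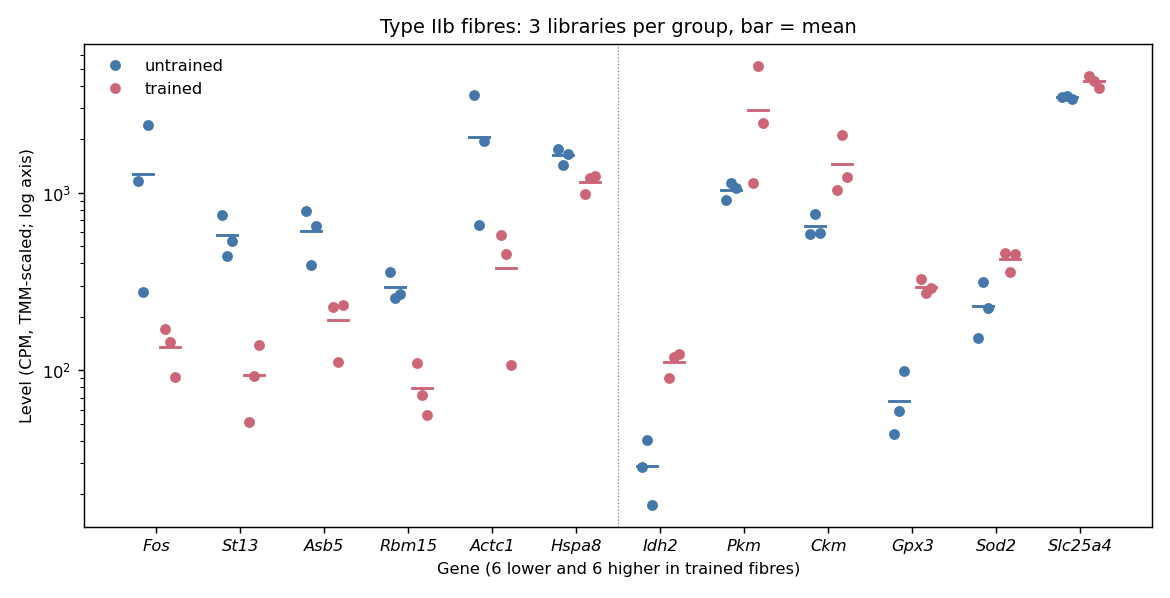
Levels (CPM, log axis) of 12 genes in the 3 untrained (blue) and 3 trained (red) type IIb libraries, with bars for group means. The groups do not overlap for any of the 12, which were drawn from the separated genes, and the trained mean lies 9.44-fold lower for Fos, 6.12-fold lower for St13 and 4.40-fold higher for Gpx3.

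St13, a co-chaperone that works with HSP70 (ENSMUSG00000022403, chromosome 15, 81363669 to 81400077), had 751, 439 and 534 CPM untrained and 51.3, 92.5 and 138 CPM trained. Each trained library held less than each untrained one by a wide gap, a mean 6.12-fold lower (log2 fold change -2.61 ± 0.60 SE, edgeR adjusted p = 0.597). Hspa8, the constitutive HSP70 itself, had 1772, 1436 and 1659 against 989.5, 1217 and 1239 CPM, 1.41-fold lower. It was the 1 separated gene among 26 heat shock genes (3.85%, against 1.92% of all genes and 6.07% of abundant genes separated lower). Of these 14 lay below 0 and 12 above (median -0.09, but 0.33 without untrained library 3). Hsp90b1, the endoplasmic reticulum member of the HSP90 family, had 113, 61.8 and 73.5 against 40.5, 19.0 and 51.2 CPM. It was the 1 separated among 17 genes of endoplasmic reticulum stress (5.88%, against 1.92% of all genes separated lower).

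Asb5, an ankyrin repeat and SOCS box protein of muscle (ENSMUSG00000031519, chromosome 8, 54529580 to 54587875), had 785, 393 and 648 against 226, 112 and 234 CPM (3.19-fold lower, log2 fold change -1.67 ± 0.52 SE, edgeR adjusted p = 0.597). Rbm15, an RNA-binding protein of the machinery that methylates messenger RNA, had 359, 255 and 267 against 109.7, 72.5 and 55.8 CPM (3.70-fold lower, log2 fold change -1.89 ± 0.65 SE, edgeR adjusted p = 0.597). Both had 3 trained libraries well below the untrained ones and a log2 fold change below -1.4 under every setting tried. Apart from Actc1, the remaining separated lower genes of smallest p were led by 1 untrained library or had few counts in the trained group. Hoxa10, a homeobox factor of limb patterning, had 367, 36.8 and 59.1 against 0.643, 3.08 and 16.5 CPM. Zfp65, a zinc finger protein, had 74.3, 1.68 and 69.4 CPM and no count in the trained libraries (at least 407-fold lower from 3 counts over the group).

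Antioxidant genes were split at 13 above and 14 below 0 (median -0.03), with 3 of 27 separated higher (11.1%) and 1 lower (3.7%). These compare with 2.82% and 1.92% of all genes, and with 4.8% and 6.07% of abundant genes. Gpx3, a secreted glutathione peroxidase (ENSMUSG00000018339, chromosome 11, 54902453 to 54910377), had 43.7, 59.0 and 98.5 CPM untrained and 326, 271 and 289 CPM trained, with the groups far apart and the trained libraries close together (4.40-fold higher, log2 fold change 2.14 ± 1.14 SE, edgeR adjusted p = 0.607). Sod2, the mitochondrial superoxide dismutase, had 152, 312 and 223 against 459, 358 and 449.9 CPM, 1.84-fold higher. Prdx5, a peroxiredoxin, had 94.3, 105 and 131 against 135, 284 and 233 CPM, 1.97-fold higher. The 10 abundant members of the list included 8 above 0, Gpx3, Sod2 and Prdx5 among them, where 586 of the 1104 abundant genes lay above 0. The library medians of these 10 were -1.01, 0.25 and 0.39 in untrained and 0.01, 0.12 and 0.92 in trained libraries, with overlap.

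Among the other lists, proteasome subunits lay above 0 in 23 of 31 cases (74.2%, against 58% of all genes). Psmb5 was separated higher and Psma2 lower (3.23% each, against 2.82% and 1.92% of all genes). The proteasome median of 0.33 was near the 0.36 of all genes, and that of the 20 abundant members was 0.13. The library medians of these 20 were -0.83, 0.48 and 0.15 in untrained and -0.18, 0.38 and 0.05 in trained libraries. Ion channels and pumps of the cell membrane lay below 0 in 13 of 19 (68.4%, against 39% of all genes, median -0.42). Circadian clock genes did so in 11 of 19 (57.9%, median -0.34, but 0.59 without untrained library 2), and none was separated in either list. Of 25 fibre type regulators 14 were above 0 (median 0.01, but -0.19 scaled by library totals). Tead1, a transcription factor of muscle promoters, was the 1 separated (4%, against 2.82% of all genes separated higher), at 70.2, 136 and 31.5 against 195, 149.6 and 161 CPM. Ncor1, a corepressor of oxidative gene expression, was the 1 separated among 25 mitochondrial regulators (4%, against 2.82% of all genes separated higher). It had 4.97, 124 and 100.3 against 243, 159 and 136 CPM. Of the 25 regulators 17 lay above 0 (68%, against 58% of all genes, median 0.57). The median of the mitochondrial regulators was -0.56 without trained library 3.

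Most separated higher genes of smallest p other than Idh2 were nearly absent from the untrained libraries. Ikbkg, the regulatory subunit of the kinase that activates NF-kappaB, had no count there and 15.1, 7.80 and 6.61 CPM in the trained libraries (at least 101-fold higher from 3 counts over the group). Wsb1, Ccdc66 and Alg5 drew most of their level from trained library 1, at 175, 392 and 289.9 CPM, with 0.181 to 5.25 CPM in the other trained libraries. Ablim1, an actin-binding LIM protein, had 0.129, 0.181 and 25.4 CPM, and thus came from trained library 3. Gpalpp1 likewise had no untrained count and had 61.3, 15.6 and 10.4 CPM in the trained libraries (at least 283-fold higher). Ikbkg and Gpalpp1 were above 5 CPM in each trained library, and the other 9 genes of this kind were below it in at least one. DESeq2 called Ikbkg, Gpalpp1, Alg5 and Ablim1 (adjusted p = 0.000229, 0.000468, 0.000736 and 0.0101) and gave no adjusted p for Wsb1 or Ccdc66.

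A set of genes known from work on endurance training showed no separation. Ppargc1a, the coactivator PGC-1alpha of mitochondrial biogenesis, had 0, 85.8 and 41.3 CPM untrained and 3.47, 54.8 and 76.5 CPM trained. Hk2, hexokinase, had 46.1, 886 and 199 against 94.7, 306 and 482 CPM, and Slc2a4, the glucose transporter GLUT4, had 158, 169 and 295 against 134, 290.3 and 165 CPM. The groups overlapped in each of these. Vegfa, the vessel growth factor, averaged 158 ± 46.6 and 136 ± 38.5 CPM (SD, n = 3), and Pdk4, which restrains pyruvate oxidation, averaged 34.0 ± 32.0 and 56.9 ± 54.6 CPM. Tfam, Esrra, Ucp3, Txnip, Mstn, Fbxo32 and Cox4i1 also overlapped, with log2 fold changes from -0.92 to 0.71. Mb, myoglobin, had at most 4.97 CPM in 5 libraries and 146 CPM in trained library 3, and 31.9% of its exon sequence is shared with another gene. Cpt1b had no count in any of the 6 libraries, and 81.4% of its exon sequence is shared with another gene.

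Markers of vessel cells and fibroblasts were concentrated in trained library 3. Of 14 endothelial markers, 13 had at least 10 counts in that library and no more than 1 reached this in any other, and their sum was 469 CPM there against 0 to 45.9 CPM in the other 5. Pecam1, an endothelial marker of this list, had 16.9 CPM in trained library 3 and none elsewhere. The markers of mural cells summed to 169 CPM in trained library 3 against 0 to 7.78 elsewhere, and those of fibroblasts to 347 CPM against 0.108 to 44.6. Erythroid and Schwann cell sums were also highest there, at 57.8 and 26.6 CPM, against at most 8.64 and 5.83 CPM elsewhere. Of 24 extracellular matrix genes 22 lay above 0 and 2 below, against 8 above and 7 below without trained library 3. Among the 24 genes 1 was separated higher (4.17%, against 2.82% of all genes). That was Sparc, a matrix glycoprotein, at 0.216, 2.00 and 10.2 CPM untrained and 20.7, 23.9 and 84.1 CPM trained. Because these are bulk counts, more cells of a type and more RNA per cell cannot be told apart.

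**Figure D5:**
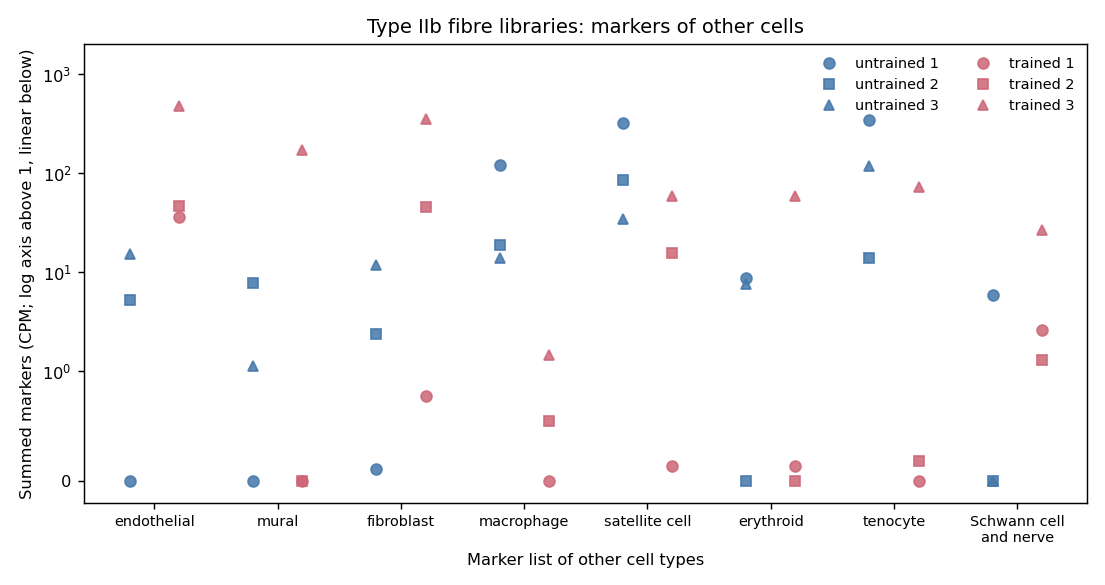
Summed level of markers of 8 other cell types in the 6 type IIb libraries (CPM, log axis above 1 and linear below), with untrained libraries in blue and trained in red. Trained library 3 holds the highest endothelial (469 CPM), mural (169 CPM) and fibroblast (347 CPM) sums, and the untrained libraries hold the higher macrophage list sums.

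Macrophage markers went the other way, mostly through Mrc1. This gene, for a mannose receptor, had 119, 6.81 and 13.8 CPM untrained and 0, 0 and 0.216 CPM trained. Of the 12 macrophage list members 7 had no count in any of the 6 libraries, among them Ptprc, Csf1r, C1qa, C1qc and Lyz2. In untrained library 2 the list summed to 18.8 CPM, with 3 members at 10 counts or more, so Mrc1 was not its only signal there. Satellite cell markers summed to 319.8, 83.6 and 34.0 CPM untrained and 0.129, 15.6 and 58.3 CPM trained, where untrained library 1 held the most, all of it Chodl. Tenocyte markers summed to 344, 13.9 and 118 against 0, 0.181 and 72.4 CPM, and of these Thbs4 had 343, 11.9 and 117 against 0, 0.181 and 69.6 CPM. H2-K1, an MHC class I gene, was separated higher at 0, 5.69 and 17.0 against 51.2, 70.9 and 72.8 CPM. The part of other cells in the differences between groups was not tested beyond leaving out trained library 3.

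The difference between the training effects of type IIb and type I fibres was tested as an interaction in the same fit, and the comparisons share no libraries. EdgeR called 0 of 11747 genes (0%, smallest adjusted p 0.418), with 1050 at an unadjusted p under 0.05 (8.94%). DESeq2 called 347 of 11075 genes with a higher and 28 with a lower training effect in type IIb fibres. Which libraries held the counts of these genes was not examined. Type I fibres had also been digested for longer (90 min), which cannot be told apart from fibre type. The leading type IIb genes had these values in type I fibres. St13 averaged 222 ± 26.0 CPM untrained and 308 ± 123 CPM trained in type I fibres (SD, n = 3), a log2 fold change of 0.47 against -2.61 in type IIb (interaction, edgeR adjusted p = 0.418). Rbm15 had 1.25 against -1.89 and Asb5 0.49 against -1.67, with the same adjusted p. Gpx3 had a log2 fold change of -3.78 in type I against 2.14 in type IIb fibres, where its type I groups averaged 27.8 ± 23.5 and 1.98 ± 3.01 CPM (interaction, edgeR adjusted p = 0.418). Fos and Idh2 had type I log2 fold changes of -0.52 and 0.21 (interaction, edgeR adjusted p = 0.42 and 0.433). Sparc had -5.13 in type I fibres, where 1 untrained library carried most of it.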

How the data were processed

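RNA counts of 12 libraries were used, 3 per group, and the 6 type IIb libraries carry the comparison. The deposited count table holds raw read counts per gene, and the deposited FPKM table holds the authors' values per length and library size. Alignment with TopHat2 to mm10 is given per the submitters' processing notes, and the version is not given in the sources used here. No per-sample column was left out (0). Gene names, coordinates and lengths come from the FPKM table.

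Genes were filtered with edgeR 4.0.16 (minimum count 10, minimum total 15) in R 4.3.3, scaled by TMM and fitted over all 12 libraries with the robust quasi-likelihood test. P-values were adjusted over all genes tested, with a threshold of 0.05. SE is the size of the log2 fold change over the root of edgeR's F statistic, and folds are ratios of mean CPM. A fold against a group without counts used 3 counts over the group, and a group with 1 to 3 counts has a 95% counting interval. Intervals cover counting error only, since PCR reads carry no molecular identifiers. Abundant genes have a mean of 100 CPM or more, and list levels by library used a pseudocount of 1 CPM.

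The members and gene lists were chosen with earlier results of these data known. Named genes were the separated genes of smallest p in each direction (12 each way), per list the 2 highest by FPKM and up to 3 separated ones of smallest p, the myosin genes and a fixed endurance set. Cell type markers, Cox7b, Atp5l, Sdhc, Atp5c1, Ryr1, Jun, Atf3, Btg2, Mrc1 and Thbs4 were named after their values were seen. Alternatives were other scalings, filters and fits, DESeq2 1.42.0, limma 3.58.1 (voom, or log2 of FPKM plus 1 or 0.1), the replicate number as a block, and leaving out each library. A limit of 100 CPM, a gene length term and leaving out the libraries with the fewest genes were chosen after seeing the data. The scripts were tested on simulated counts, where changed genes were recovered at a reduced spread and not at the spread estimated from these libraries. A result of the excitation-contraction coupling list is not reported here.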

Additional observations from a re-analysis of the deposited data

How the results depend on the processing

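The count of called genes was 0 under each setting except the following. Without a filter beyond 1 count, edgeR called 6 genes higher and 3 lower for training and 22 and 4 for the difference between fibre types. DESeq2 called 278 and 46 for training and 347 and 28 for the difference, and limma-voom with quality weights 1 and 1, and 3 and 0. Leaving out 1 library gave 0 to 0 higher and 0 to 2 lower for both (training: Tnnc1 without untrained library 1, and Lpl and Atp1b1 without trained library 3). Leaving out untrained 1 and trained 1 together gave 0 higher and 1 lower, again Tnnc1. The cause was not tested. The replicate numbers did not pair the libraries (same-number deviations correlated at 0.11, 0.01 and -0.04 across genes), and with a replicate block 0 genes were called for training or for the difference, with 281 higher and 92 lower at an unadjusted p under 0.05. The difference in genes detected (775) ran from -1168.8 to 2225.3 without single libraries, the mitochondrial share (-1.46 percentage points) from -2.97 to -0.628, and the Myh4 share from -0.0937 to 0.110. With 3 libraries a group, 8774 tested genes lacked counts in at least one type IIb library, and folds of such genes rest on few libraries.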
